A study of Mus musculus with 28 samples.

Results

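Prdm1, Prdm14 and Tfap2c encode the transcription factors that specify mouse primordial germ cells (PGC), from which eggs and sperm later develop. Their transcripts were followed across 14 groups of germ cells, cell lines derived from germ cells or embryos, and adult testis. The genes were found by matching the RefSeq accession that the array design gives for each probe to a gene symbol, which gave 3 of the 30392 genes and unnamed transcripts on the array and 8 of its 43289 probes. Prdm1 had 4 probes, Prdm14 had 2 and Tfap2c had 2, and for each gene the probe with the highest mean over all arrays carries the results below.

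The study hybridised RNA of each sample to a 1-colour Agilent expression array, with 2 arrays per group and 28 in all. PGC of males and females were taken at embryonic days 10.5, 13.5 and 17.5 (E10.5, E13.5, E17.5) from strain BDF1 x TgN(deGFP)18Imeg, and oogonia and spermatogonia, whose ages the labels do not give, came from strain BDF1 x Tg(Mvh-Venus)1Rbrc. The cultured lines were embryonic germ (EG) cells of both sexes (Rb(X.2)2Ad X 129/Sv), whose source field names 12.5 dpc PGC, female embryonic stem (ES) cells of line no5 (129/Sv), male ES cells of line TMA5 (an F1 hybrid of TgN(deGFP)20Imeg X MSM/Ms), and male germline stem (GS) cells of strain DBA/2. Adult testis of male C57BL/6J mice was measured as whole tissue. Each ES group is 1 line, so sex, line and strain cannot be told apart there, and strain also differs between PGC and every cultured line. Whether the 2 arrays of a group stem from separate animals or cultures is not in the labels, so the p-values reflect how far these particular samples spread, and that spread may be technical.

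As background, PGC arise from the epiblast when BMP and WNT signals switch on Prdm1 and Prdm14. PRDM1 (BLIMP1) is a repressor that silences the somatic programme, PRDM14 restores pluripotency genes and lowers the enzymes of DNA methylation, and AP-2 gamma, the product of Tfap2c, is an activator that works downstream of PRDM1. PRDM14 and AP-2 gamma are also present in pluripotent stem cell lines, and all 3 genes are known to decline as germ cells enter meiosis or mitotic arrest.

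Prdm1, Prdm14 and Tfap2c moved together in several comparisons below, and the motifs bound by AP-2, PRDM1, PRDM14 and T-box factors are known. Of these genes, a promoter window was available for Prdm1 only, and it is shown. RefSeq (GRCm38.p6) places the 250 bases upstream of 1 Prdm1 start site at chr10:44458749-44458998 on the minus strand, with CpG dinucleotides in capitals. The window lies inside the gene's full span, chr10:44437174-44528558, so it is not that of the gene's outermost start.

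Prdm1 upstream window: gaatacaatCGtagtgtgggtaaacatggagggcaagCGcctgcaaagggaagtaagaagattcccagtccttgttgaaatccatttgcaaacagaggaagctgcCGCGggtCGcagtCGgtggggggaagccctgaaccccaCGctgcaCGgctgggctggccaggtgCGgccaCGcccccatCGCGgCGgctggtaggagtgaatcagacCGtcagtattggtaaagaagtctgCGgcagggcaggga

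This window holds 15 CpG dinucleotides and 59.2% G or C, where the median over 32851 such windows is 6 CpG and 27.3% of windows hold at least 15. On both strands of the full window, which runs 250 bases upstream and 50 downstream, the AP-2 motif GCCNNNGGC, the PRDM1 core GNGAAAG, the PRDM14 motif GGTCTCTAA and the T-box motif AGGTGTGA had 0 matches. These letters occur in 16.6%, 22.6%, 0.256% and 1.28% of all windows, in that order of motifs. DNA methylation was not measured on these arrays.

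Levels are given on a log2 scale in which 0 is each array's 75th percentile over 7227 probes with signals well above background everywhere. Between 17.8% and 76.7% of probes were well above background on an array, with the lowest share on E10.5 male replicate 1 and the highest on testis. The lowest signal well above background ran between -10.72 and -3.58 on the 28 arrays, so how far down a gene could be read differed between them. The 7 germ cell markers (Ddx4, Dazl, Dppa3, Pou5f1, Mael, Dnd1 and Nanos3) were above background on every array outside testis, where 6 were. The 2 GS arrays agreed least of all replicate pairs, with a Pearson correlation of 0.915 over probes, and results on GS cells are given with that in view. In these bulk samples, fewer cells of a type and less RNA per cell cannot be told apart.

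Prdm1 was highest in E10.5 and E13.5 PGC. Its level was -1.37 and -0.83 on the E10.5 male arrays and -1.39 and -1.11 on the E10.5 female arrays. At E13.5 it read -1.69 and -1.33 in males and -2.65 and -1.71 in females. E10.5 males, E10.5 females and E13.5 males overlapped in turn and lay above every other group, and E13.5 females (mean -2.18) came next, with 1 GS array (-2.47) above the lower of their 2 arrays. A middle band followed, in which EG females (mean -3.01), spermatogonia (-3.11), E17.5 males (-3.50), EG males (-3.56), GS cells (-3.57) and ES females (-3.86) each overlapped their neighbour in the order. ES males (-4.42) lay within the range of the 2 GS arrays. Oogonia (-5.46) and testis (-8.96), both above background, lay below these groups without overlap. In E17.5 females (mean -7.57) neither array was well above background, at processed signals of 4.75 and 6.69. Their order against testis is therefore not read.

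Prdm14 was highest in E10.5 PGC and in female ES cells. It read -1.34 and -1.07 in E10.5 females, -1.61 and -1.07 in E10.5 males, and -1.59 and -1.51 in ES females, and these 3 groups overlapped in turn. E13.5 males (-1.81 and -1.78) and E13.5 females (-2.58 and -1.92) came next. EG females spread widely, at -3.34 and -1.45, so that their higher array lay above both ES female arrays and 1 E10.5 male array, and their lower array overlapped EG males (mean -3.39). Below them stood ES males (-4.27), E17.5 males (-4.67) and spermatogonia (-5.49). No array of E17.5 females (-7.76 and -8.66), oogonia (-9.07 and -10.19) or testis (-12.02 and -12.10) had Prdm14 well above background, and in GS cells replicate 2 did (-9.17) and replicate 1 did not (-10.25). No order is read from the values not above background.

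Tfap2c stood apart in E10.5 PGC, at 2.48 and 1.90 in females and 2.39 and 1.89 in males. No array of another group reached 1. ES females (0.85 and 0.75) followed, then EG males (0.12 and 0.39), E13.5 females (-0.20 and 0.34) and EG females (-0.38 and -0.04), of which each overlapped the next. Spermatogonia (mean -0.55), E13.5 males (-0.91), ES males (-1.12), E17.5 males (-2.26) and GS cells (-3.68) came next without overlap between neighbours. The lowest 3 groups, oogonia (-5.95), testis (-6.28) and E17.5 females (-6.79), overlapped. Of the 2 E17.5 female arrays, replicate 2 was well above background (-5.94) and replicate 1 was not (-7.63).

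**Figure D1:**
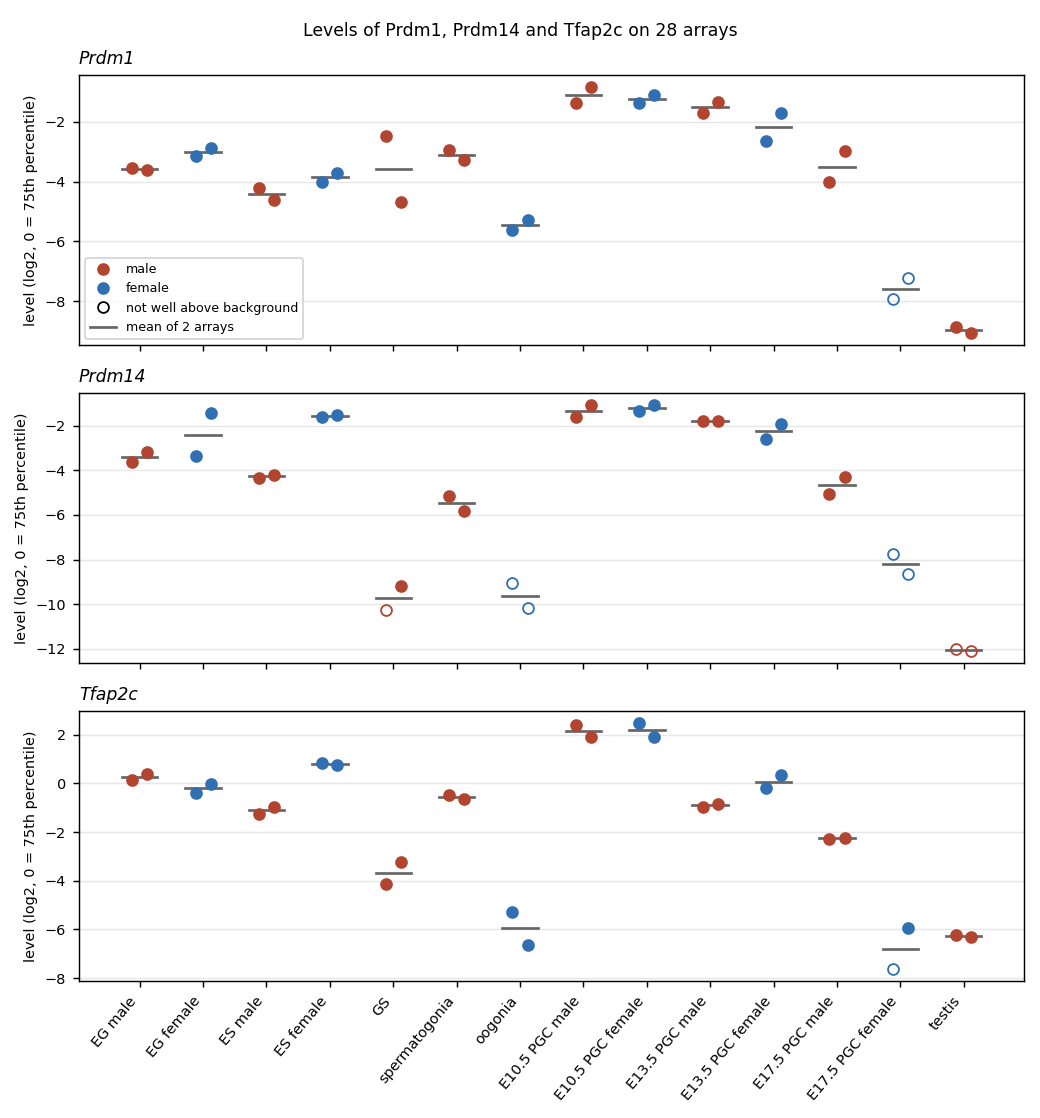
Level of Prdm1, Prdm14 and Tfap2c (log2, 0 = 75th percentile of probes above background on all arrays) on each of the 28 arrays, in 14 groups; open circles were not well above background and bars are means of 2 arrays. E10.5 PGC lead every panel, overlapped by E13.5 males for Prdm1 and by ES females and 1 EG female array for Prdm14. Both E17.5 female arrays lie below both E17.5 male arrays for every gene. Neither is well above background for Prdm1 or Prdm14, and 1 is for Tfap2c, so these distances are not measured sizes.

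The other probes of Prdm1 and Prdm14 followed their main probe closely. Over the 14 group means the 4 Prdm1 probes correlated at 0.950 to 0.999 with each other and the 2 Prdm14 probes at 0.995. The second Tfap2c probe, M08A01896, correlated at 0.67 with the main one, M08A11543, and was well above background on 8 of 28 arrays against 27 for the main probe. It was above background on both arrays only in EG males and EG females, so Tfap2c results outside EG cells rest on 1 probe. The Prdm1 probe M08A01553 was also dim, above background on 18 arrays, where the other 3 Prdm1 probes were above it on 26.

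**Figure D2:**
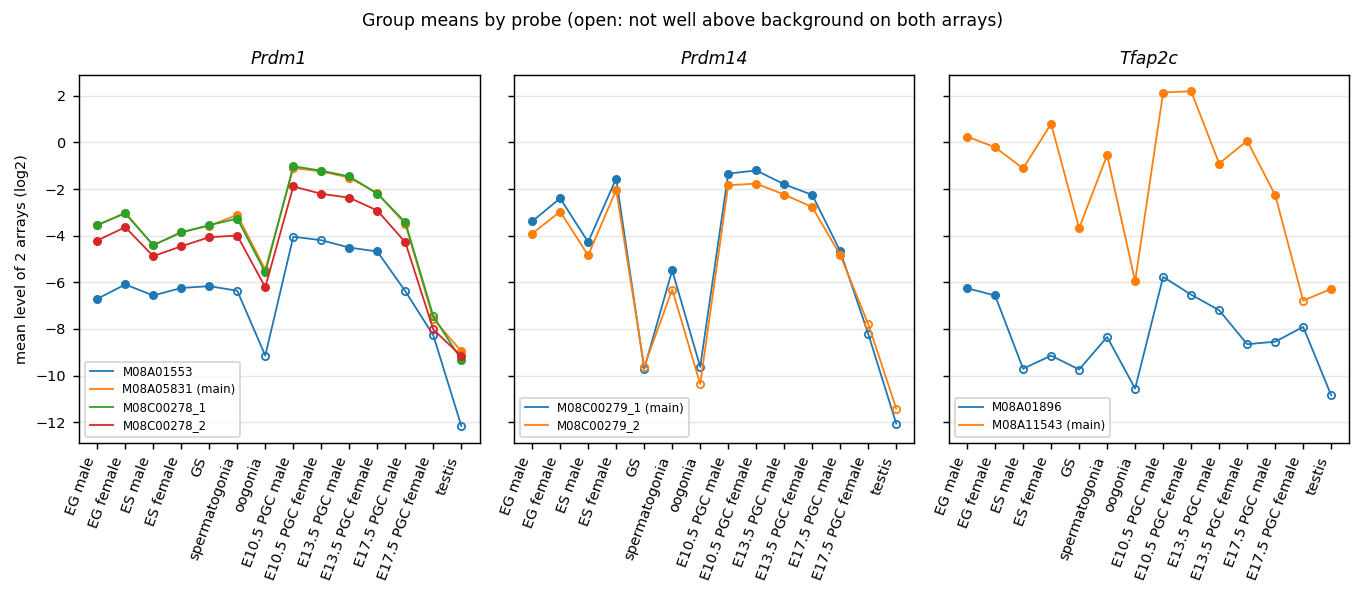
Mean level of 2 arrays (log2) in each of 14 groups for every probe of Prdm1, Prdm14 and Tfap2c; open circles mark groups in which the probe was not well above background on both arrays. The 4 Prdm1 lines (correlations of 0.950 to 0.999) and the 2 Prdm14 lines (0.995) run alike, while the dim Tfap2c probe M08A01896 follows the main probe less closely (0.67).

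Between E10.5 and E13.5, when PGC settle in the gonad and sex begins to differ, Tfap2c fell in both sexes. In females its level was -0.20 and 0.34 at E13.5, against 2.48 and 1.90 at E10.5, a log2 change of -2.12 ± 0.49 (SE; limma adjusted p = 0.0041, 2 arrays per group). In males it was -0.96 and -0.86 at E13.5, against 2.39 and 1.89 at E10.5, a change of -3.04 ± 0.49 (limma adjusted p = 4.88e-04). The change amounted to a 4.36-fold fall in females and an 8.25-fold fall in males. Prdm1 changed by -0.93 ± 0.54 in females (limma adjusted p = 0.205) and -0.41 ± 0.54 in males (0.642), and Prdm14 by -1.05 ± 0.55 in females (0.164) and -0.46 ± 0.55 in males (0.613), none of which passed the threshold of 0.05. The 95% confidence intervals of these changes ran down to -2.08 for Prdm1 and -2.22 for Prdm14 in females. Thus 1 of the 3 genes was called lower in each sex, where 8.96% of 11334 genes tested in females and 6.75% of 8819 in males were. The median change of all genes tested was 0.36 in females and 0.19 in males. With slide as a block on the 12 PGC arrays the Tfap2c call was lost in both sexes (females -2.55, adjusted p = 0.0678; males -3.47, adjusted p = 0.0745), although within the slide that holds both stages the difference was -2.68 in females and -3.34 in males.

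All 3 genes fell between E13.5 and E17.5, the period in which female germ cells enter meiosis and male germ cells arrest in mitosis. In females Prdm1 read -7.94 and -7.21 at E17.5, against -2.65 and -1.71 at E13.5. Prdm14 read -7.76 and -8.66 at E17.5, against -2.58 and -1.92 at E13.5. Both genes were above background on every E13.5 array and on no E17.5 female array, so their fall has only a bound. Where a gene was not well above background in a whole group, the brighter group's mean was divided by a floor, which for each array of the dim group was its own signal or, if higher, the lowest well-above-background signal of that array, averaged over the group. Stated so, Prdm1 was at least 19.2-fold lower in E17.5 females and Prdm14 at least 18.2-fold lower. The fit without a floor gave a limma adjusted p of 2.3e-06 for Prdm1 and 1.09e-06 for Prdm14. With each array's own floor it was 5.04e-05 and 2.97e-05. Tfap2c read -7.63 and -5.94 in E17.5 females, against -0.20 and 0.34 in E13.5 females. The fitted change was -6.85 ± 0.49 (limma adjusted p = 6.82e-08), with 1 of the 2 E17.5 arrays above background. With each signal not above background raised to the lowest signal well above background on its own array, it was -5.97 (adjusted p = 5.72e-08), or 62.7-fold. All 3 genes were called lower, among 16.1% of 11918 genes tested.

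In males the same step was smaller and every array stayed well above background. Prdm14 read -5.05 and -4.29 at E17.5, against -1.81 and -1.78 at E13.5, a change of -2.87 ± 0.55 (limma adjusted p = 7.0e-04), or 7.32-fold. Prdm1 read -4.00 and -2.99 at E17.5, against -1.69 and -1.33 at E13.5, a change of -1.99 ± 0.54 (limma adjusted p = 0.0076), or 3.96-fold. For both genes the E17.5 arrays lay below the E13.5 arrays with a clear gap. Tfap2c read -2.28 and -2.24 at E17.5, against -0.96 and -0.86 at E13.5, a change of -1.35 ± 0.49 (limma adjusted p = 0.034), or 2.55-fold. All 3 genes were called lower in males, among 14% of 12905 genes tested, whose median change was 0.47. The Tfap2c call was lost under a slide block (-1.08, adjusted p = 0.203), a scan day block (-1.35, 0.114) and with any of the 4 arrays left out, and the Prdm1 call under normexp background correction (-1.37, 0.0635) and without E17.5 male replicate 1 (-1.48, 0.0882).

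The fitted fall was deeper in females than in males for each gene, a result that for Prdm1 and Prdm14 depended on how signals not above background were treated. The difference between the sexes in the E17.5 over E13.5 change, males minus females, was 3.41 ± 0.76 for Prdm1 (limma adjusted p = 0.0033), 3.09 ± 0.78 for Prdm14 (0.0075) and 5.50 ± 0.69 for Tfap2c (2.94e-05). For Tfap2c it was 6.11 for replicate 1 and 4.90 for replicate 2, which were scanned on separate days, with E17.5 female replicate 1 not above background. All 3 genes were called higher in this difference, among 17.9% of 13911 genes tested. In E17.5 females Prdm1 and Prdm14 were above background on 0 of 2 arrays, so their fitted differences are not measured sizes. With signals raised to each array's own floor the difference was 2.27 (adjusted p = 0.0563) for Prdm1, 1.31 (0.249) for Prdm14 and 4.62 (3.50e-05) for Tfap2c. With every signal raised to -3.58, the lowest signal well above background on the poorest array, the difference became -0.38 (adjusted p = 0.804) for Prdm1 and -0.46 (0.799) for Prdm14, and with normexp correction it was 0.88 (0.601) and 0.57 (0.767).

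At E17.5 all 3 genes were higher in males. Prdm1 was -4.00 and -2.99 in males, against -7.94 and -7.21 in females, which puts males at least 7.70-fold above females. Prdm14 was -5.05 and -4.29 in males, against -7.76 and -8.66 in females, at least 3.42-fold higher in males. The fit without a floor gave a limma adjusted p of 1.69e-05 for Prdm1 and 7.66e-05 for Prdm14. With each array's own floor, which gives these bounds, it was 6.24e-04 and 0.0134. Tfap2c was -2.28 and -2.24 in males, against -7.63 and -5.94 in females, a difference of 4.53 ± 0.49 (limma adjusted p = 2.46e-06), with 1 of the 2 female arrays above background, and of 3.65 (adjusted p = 3.28e-06), or 12.5-fold, with each array's own floor. The 3 genes were called higher in males, among 30.8% of 13315 genes tested. Within the 2 slides that carry both sexes Tfap2c differed by 5.35, where the female array was not above background, and by 3.71, where it was. With normexp correction Prdm14 differed by 1.01 (adjusted p = 0.116), and with the common floor Prdm1 differed by 0.29 (0.678).

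Before E17.5 no sex difference passed the threshold. At E13.5 males differed from females by 0.67 ± 0.54 for Prdm1 (limma adjusted p = 0.460), 0.46 ± 0.55 for Prdm14 (0.646) and -0.97 ± 0.49 for Tfap2c (0.204), and 0 of 3 were called where 14.3% of 11485 genes were. The male and female arrays did not overlap for any of the 3 genes at E13.5, and the interval for Tfap2c ran from -2.01 to 0.06. At E10.5 the differences were 0.15 for Prdm1, -0.14 for Prdm14 and -0.05 for Tfap2c, all with a limma adjusted p above 0.99 and with overlapping arrays, in a comparison that called 0.0134% of 7467 genes. The first step, E13.5 over E10.5, did not differ between the sexes past the threshold either: males minus females it was 0.52 ± 0.76 for Prdm1 (limma adjusted p = 0.785), 0.60 ± 0.78 for Prdm14 (0.754) and -0.92 ± 0.69 for Tfap2c (0.511), where 3.84% of 11577 genes were called.

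**Figure D3:**
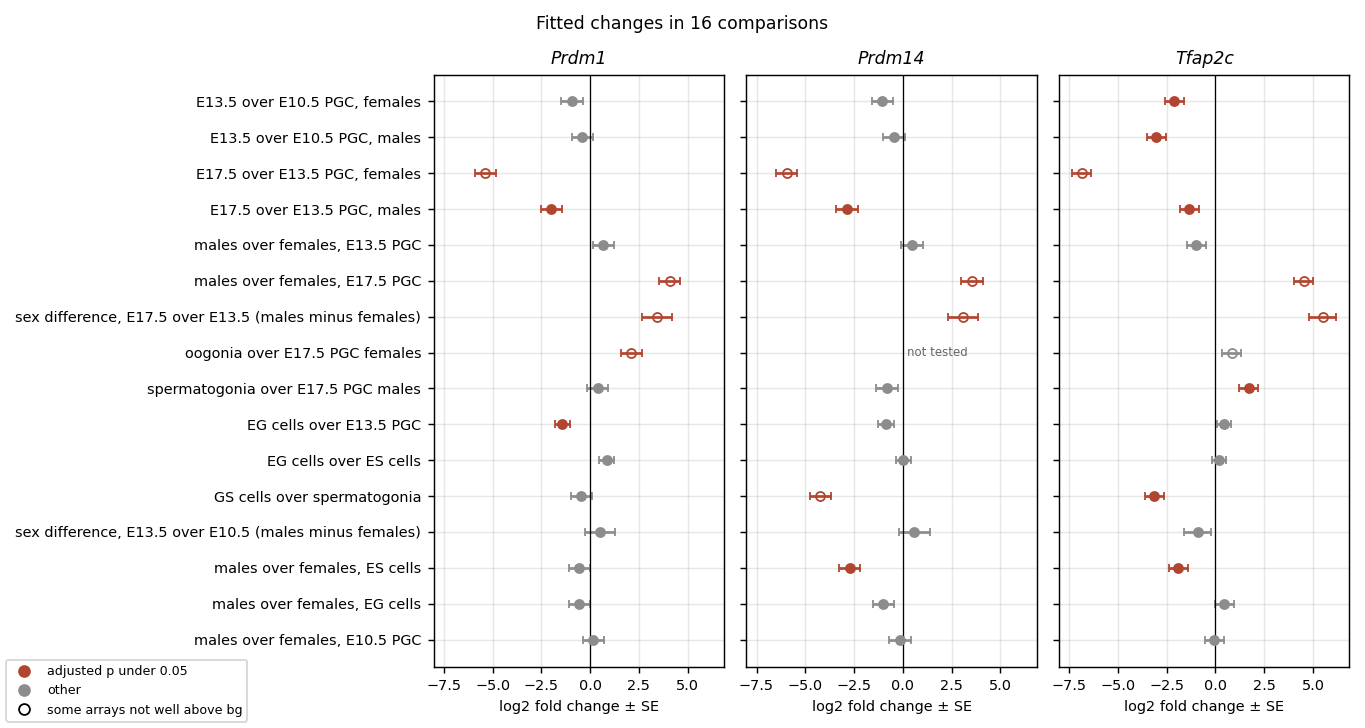
Fitted log2 fold change ± SE of Prdm1, Prdm14 and Tfap2c in 16 comparisons, with red points at a limma adjusted p under 0.05 and open points where some arrays compared were not well above background. At E17.5 over E13.5 the open female points are not measured sizes, with bounds of at least 19.2-fold lower for Prdm1 and at least 18.2-fold for Prdm14, and the male points run from -2.87 to -1.35.

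Markers of other cell types differed between the E17.5 sexes as well. Of 10 measured Sertoli and pregranulosa markers, 8 to 9 were above background on the E17.5 male arrays and 4 to 5 on the E17.5 female arrays, and the list's summed linear level was 2.81 to 4.80 in males, against 0.24 to 0.39 in females. Sox9, the Sertoli determinant, read -0.91 and -1.42 in E17.5 males and was not above background in E17.5 females (-7.17 and -7.01), while Foxl2, the pregranulosa factor, was above background in neither sex. The endothelial list (5 measured) summed to 0.28 to 0.33 in males, against 0.03 to 0.06 in females. The blood list (5 measured, 2 above background on every E17.5 array) summed to 1.13 to 3.81 in males, against 2.82 to 16.7 in females. The germ cell list summed to 15.6 to 15.9 in E17.5 males, against 10.6 to 11.2 in E17.5 females. The part of these other cells in the E17.5 results was not tested.

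Genes known to act with or after the 3 factors in early PGC also fell late. Of 14 listed early PGC genes, 13 were measured and tested, and between E13.5 and E17.5 the limma fit called 9 lower and 1 higher in each sex, with a median change of -3.23 in females and -1.74 in males against 0.09 and 0.47 over all genes tested. Of all genes tested, 16.1% were called lower and 19.2% higher in females, and 14% lower and 30.1% higher in males. Among those that fell in females were the pluripotency factors Sox2 (at least 46.8-fold lower), Nanog (at least 18.1-fold lower) and Pou5f1 (-5.57 ± 0.58, limma adjusted p = 3.64e-06). Among those that fell in males were Ifitm1, an interferon-inducible membrane protein (-5.73 ± 0.40, 1.16e-07), Dppa3, a maternal factor that shields methylation in the zygote (-5.24 ± 0.35, 1.03e-07), and Sox2 (-4.69 ± 1.17, 0.0046). The change differed between the sexes for 8 of the 13 and in both directions, with 5 higher and 3 lower in males minus females, where 17.9% of all genes tested were higher and 11.4% lower. Alpl, the alkaline phosphatase used to stain PGC (4.14 ± 0.35, limma adjusted p = 7.34e-07), and Pou5f1 (3.83 ± 0.83, 0.0025) were among the 5, and Dppa3 (-5.21 ± 0.50, 2.46e-06) among the 3. At the earlier step, E13.5 over E10.5, the list had 4 lower and 0 higher of 13 in females, led by Nanog (-2.73 ± 0.49, limma adjusted p = 7.48e-04) and the zinc finger factor Klf2 (-2.50 ± 0.46, 8.14e-04), and 5 lower and 0 higher of 12 in males, led by the epithelial factor Elf3 (-2.49 ± 0.53, 0.0042). Over all genes tested 8.96% were lower at this step in females and 6.75% in males.

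**Figure D4:**
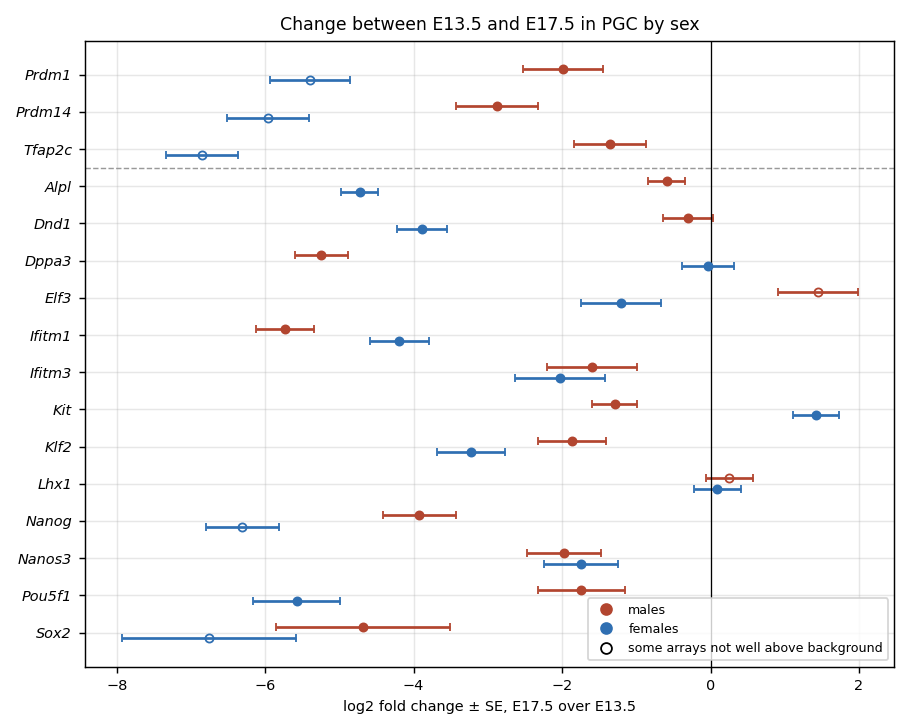
Log2 fold change ± SE of E17.5 over E13.5 PGC, in males (red) and females (blue), for Prdm1, Prdm14 and Tfap2c above the dashed line and the 13 measured early PGC genes below it. Prdm1, Prdm14, Tfap2c, Pou5f1, Alpl and Dnd1 were among the genes with more negative fitted changes in females. Dppa3 fell by 5.24 in males and read -0.04 in females. Open points had some arrays not well above background. For Prdm1 and Prdm14 the sex difference changed sign with the common floor.

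Of genes that PRDM14 represses in mouse ES cells, several rose. All 8 listed genes were measured. At E13.5 over E10.5, 3 of 5 tested were called higher and 0 lower in each sex, where 20.5% of all genes tested were called higher in females and 12.5% in males. Uhrf1, which brings the maintenance methyltransferase to replicating DNA, led in females (2.30 ± 0.39, limma adjusted p = 4.58e-04) and changed by 2.09 ± 0.39 in males (0.0016), and Dnmt3b, a de novo DNA methyltransferase, by 1.32 ± 0.30 in females and 1.64 ± 0.30 in males. At E17.5 over E13.5, 3 of 5 were called higher and 0 lower in females (19.2% of all genes higher), where Dnmt3a, another de novo methyltransferase, rose by 1.27 ± 0.37, and 4 of 7 were higher and 1 lower in males (30.1% of all genes higher). Dnmt3l, the cofactor of the de novo enzymes, rose by 7.89 ± 0.82 in E17.5 males (limma adjusted p = 3.39e-06) and Dnmt3a by 3.40 ± 0.37 (4.57e-06), while the growth factor receptor Fgfr2 was at least 2.68-fold lower. Dnmt3l in E17.5 males exceeded its level in E17.5 females at least 946-fold. The median change of the list ran from 1.08 to 1.64 in these 4 comparisons, against 0.09 to 0.47 over all genes tested.

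Of 15 listed chromatin proteins that partner PRDM1 or PRDM14, 12 were measured and 11 tested. Between E13.5 and E17.5 the limma fit called 1 higher and 4 lower in females, where 19.2% of all genes tested were higher and 16.1% lower, with Ezh2, the Polycomb methyltransferase, at -1.29 ± 0.30, Prmt5, the arginine methyltransferase that binds PRDM1, at -1.12 ± 0.36, and Suz12, a Polycomb subunit, at -0.90 ± 0.30. In males 1 was higher (Eed, a Polycomb subunit, 1.43 ± 0.35) and 3 were lower, which were Suz12 (-0.93 ± 0.30), Cbfa2t2, the corepressor that binds PRDM14 (-1.25 ± 0.27), and the deacetylase Hdac1 (-1.01 ± 0.24), where 30.1% of all genes tested were higher and 14% lower. At E17.5 Prmt5 was 1.58 ± 0.36 higher in males than in females (limma adjusted p = 0.0019) and Cbfa2t2 changed by -1.16 ± 0.27 in males over females (0.0022).

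Most other members of the PRDM and AP-2 families were dim or not measured. Of 13 other PRDM genes, 5 were measured, and Mecom and Prdm13 were above background on 1 and 0 of 28 arrays. Prdm2 was above it on 27, between -3.88 in oogonia and -1.16 in spermatogonia. At E17.5 over E13.5, 2 of 3 tested PRDM genes were called higher and 0 lower in each sex. Of all genes tested, 19.2% were higher in females and 30.1% in males. Prdm16, a regulator of brown fat and stem cells, read -0.92 and -0.58 in E17.5 females and -3.22 and -2.61 in E17.5 males, and was above background on 1 of the 4 E13.5 arrays. It rose in females, by 6.28 (adjusted p = 1.90e-04) with each array's own floor, where 1 of the 2 E13.5 female arrays was above background, and was at least 7.84-fold higher at E17.5 in males. Prdm4 was above background on all 28 arrays and ranged between -0.29 in EG females and 1.12 in E17.5 females, where it rose by 1.36 ± 0.19. In the AP-2 family, Tfap2a and Tfap2d were above background on 1 and 0 arrays, and Tfap2e on all 28, between -4.39 in EG females and -1.73 in E13.5 females. Tfap2e passed the threshold in none of the comparisons between PGC stages or sexes, with limma adjusted p between 0.069 and 0.9996.

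Of 16 listed ligands, receptors, SMADs and regulators that act upstream of Prdm1 and Prdm14 in the epiblast, 14 were measured, and between E13.5 and E17.5 2 were called higher and 1 lower of 8 tested in females, and 2 higher and 1 lower of 10 in males. These shares stand beside 19.2% higher and 16.1% lower over all genes tested in females, and 30.1% and 14% in males. Lin28a, an RNA-binding protein that lets Prdm1 be expressed by blocking a microRNA, was at least 1.96-fold lower in E17.5 females. Between the E17.5 sexes, 4 of 11 tested were called higher in males and 4 lower. Of all 13315 genes tested there, 30.8% were higher and 2786 genes lower. Among the 4 higher, the mesoderm factor T, which activates Prdm1 and Prdm14, read -1.58 and -1.51 in E17.5 males. It was not above background in E17.5 females (-9.35 and -8.18), and the ligand Wnt3 was at least 9.88-fold higher in males.

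In oogonia and spermatogonia, set against E17.5 PGC of the same sex, the 3 genes were not called alike. The order in time of these groups is not in the labels. In oogonia Prdm1 read -5.63 and -5.30, against -7.94 and -7.21 in E17.5 females, at least 1.97-fold higher (limma adjusted p = 0.0144, 6.08% of 13920 genes called higher). The Prdm1 call in oogonia was lost without E17.5 female replicate 1 (1.74, adjusted p = 0.0898), oogonia replicate 1 (2.27, 0.0617) or oogonia replicate 2 (1.94, 0.0946), with each array's own floor (0.98, 0.256), and with normexp correction, where the value was -0.29. Tfap2c differed by 0.83 ± 0.49 (limma adjusted p = 0.248), with overlapping arrays, and Prdm14 was above background in neither group and was not tested. In spermatogonia Tfap2c read -0.47 and -0.62, against -2.28 and -2.24 in E17.5 males, a rise of 1.71 ± 0.49 (limma adjusted p = 0.0264, 6.58% of 13676 genes called higher), a call lost with any of the 4 arrays left out (1.63 to 1.79). Prdm1 differed by 0.38 ± 0.54 (0.679) and Prdm14 by -0.82 ± 0.55 (0.344). Oogonia, spermatogonia and E17.5 PGC lay on different slides and scan days, so slide and group cannot be told apart, and strain differed too.

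EG cells, the pluripotent lines grown from PGC, kept all 3 transcripts above background. They shared no slide or scan day with E13.5 PGC and differed from them in strain, so these cannot be told apart from the group. Prdm1 was lower in EG cells, at -3.53 and -3.60 in males and -3.15 and -2.87 in females, against -1.69 and -1.33 in male and -2.65 and -1.71 in female E13.5 PGC, with no overlap. The change of -1.44 ± 0.38 (limma adjusted p = 0.0060, 4 arrays per group), or 2.71-fold, fell among 23.8% of 18056 genes called lower, and with slide as a random block it was -1.35 (adjusted p = 0.247). Prdm14 changed by -0.87 ± 0.39 (limma adjusted p = 0.087) and Tfap2c by 0.44 ± 0.34 (0.329), both with overlapping arrays. Without EG female replicate 2, the array with the high Prdm14 signal, the Prdm14 change was -1.34 (adjusted p = 0.0080).

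Against ES cells, EG cells showed no difference past the threshold for any of the 3 genes, where 6.31% of 18951 genes were called. EG and ES cells also lay on different slides and scan days, so slide and cell type cannot be told apart. Prdm1 differed by 0.85 ± 0.38 (limma adjusted p = 0.203, 95% interval 0.04 to 1.66), Prdm14 by 0.02 ± 0.39 (0.987, -0.81 to 0.85) and Tfap2c by 0.18 ± 0.34 (0.821, -0.55 to 0.91). These intervals rest on the spread between arrays of a group and do not cover the spread between lines. The 2 ES lines differed from each other. Prdm14 read -4.36 and -4.19 in the male line, against -1.59 and -1.51 in the female line, a change of -2.72 ± 0.55 (limma adjusted p = 0.0119), or 6.61-fold lower in the male line. Tfap2c read -1.25 and -0.99 in the male line, against 0.85 and 0.75 in the female line, a change of -1.91 ± 0.49 (limma adjusted p = 0.0366), and Prdm1 differed by -0.55 ± 0.54 (0.714). These 2 calls stand against 2.34% of 17721 genes called lower in male ES cells, and both were lost whenever 1 of the 4 arrays was left out, with Prdm14 between -2.81 and -2.64 and Tfap2c between -2.04 and -1.79. Fibroblast markers, all 8 above background in the female line, summed to 0.34 to 0.37 in male ES cells and 1.72 to 3.06 in female ES cells, and their part in this difference was not tested. Between EG males and EG females none of the 3 genes passed the threshold (Prdm1 -0.55, Prdm14 -0.99, Tfap2c 0.46, limma adjusted p between 0.574 and 0.889, with 0.988% of 17906 genes called).

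GS cells, the cultured line of spermatogonial stem cells, held far less Prdm14 and Tfap2c than spermatogonia. These groups lay on different slides and scan days and came from different strains, so group, slide and strain cannot be told apart. Prdm14 read -10.25 and -9.17 in GS cells, against -5.14 and -5.83 in spermatogonia, a change of -4.22 ± 0.55 (limma adjusted p = 6.03e-05), with 1 GS array above background. With each array's own floor the Prdm14 change was -4.01 (limma adjusted p = 8.32e-05), or 16.1-fold. Tfap2c read -4.13 and -3.23 in GS cells, against -0.47 and -0.62 in spermatogonia, a change of -3.13 ± 0.49 (limma adjusted p = 2.44e-04), or 8.77-fold. These 2 falls stand among 12.8% of 21064 genes called lower. Prdm1 read -2.47 and -4.67 in GS cells, against -2.95 and -3.27 in spermatogonia, a change of -0.46 ± 0.54 (0.596), with the GS arrays on either side of spermatogonia. Without GS replicate 1 the Prdm1 change was -1.56 (limma adjusted p = 0.032) and without GS replicate 2 it was 0.64.

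The GS replicate with more Prdm1 also carried more fibroblast transcripts. All 8 fibroblast and mesenchyme markers were above background on both GS arrays, and their summed level was 23.4 on replicate 1 and 2.33 on replicate 2. The germ cell list summed to 5.06 on replicate 1 and 12.3 on replicate 2, and Pou5f1 read -0.06 and 2.33. Dcn, a matrix proteoglycan, read 2.72 on replicate 1 and -2.81 on replicate 2. The part of these cells in the Prdm1 level of GS cells was not tested.

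**Figure D5:**
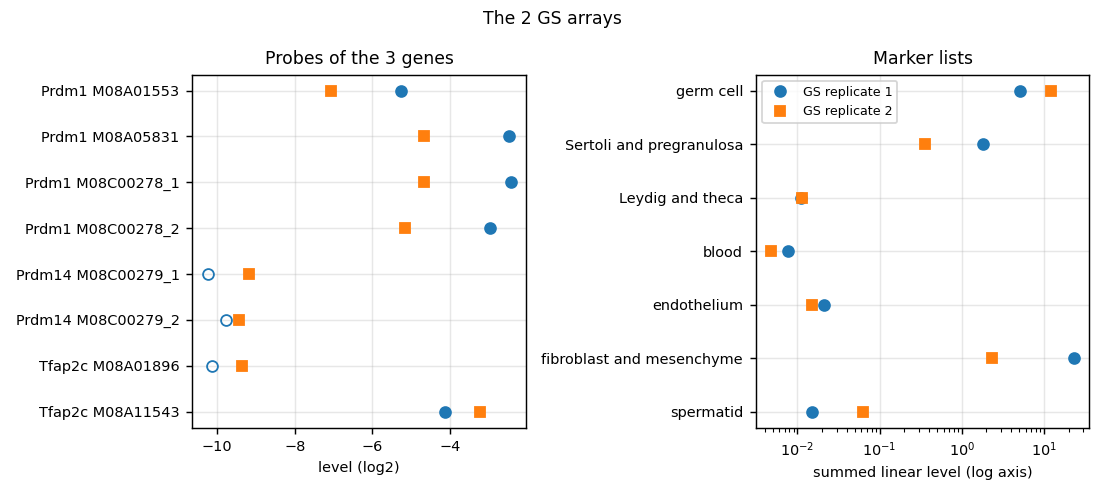
The 2 GS arrays side by side: level (log2) of each probe of Prdm1, Prdm14 and Tfap2c on the left, open where not well above background, and summed linear level of 7 marker lists on a log axis on the right. All 4 Prdm1 probes and the fibroblast list are higher on replicate 1, while the Prdm14 and Tfap2c probes and the germ cell list are higher on replicate 2.

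The 3 genes varied together across the groups to different degrees. Over the 14 group means Prdm14 and Tfap2c correlated at 0.91, Prdm1 and Tfap2c at 0.86, and Prdm1 and Prdm14 at 0.82, as a description of means that share arrays and background. Without testis, oogonia and E17.5 females, the lowest groups for Prdm1 and Tfap2c, the values over 11 groups were 0.85, 0.57 and 0.53 in the same order. GS cells stayed among the 11, with Prdm14 at a mean of -9.71 and above background on 1 array. The weight of that group in the values with Prdm14 was not tested. Among 10373 genes compared, Tfap2c ranked as the 7th most like Prdm14, and Prdm14 as the 13th most like Tfap2c, while Prdm1 ranked 143rd for Prdm14 and 53rd for Tfap2c. The genes most like Prdm14 were the pluripotency factor Nanog (0.95), Tjp3, a tight junction protein (0.94), the transcription factor Myb (0.93), the ribosome assembly factor Rrs1 (0.93) and Idh2, a mitochondrial isocitrate dehydrogenase (0.92). Those most like Tfap2c were Myb (0.95), the ephrin receptor Ephb3 (0.94), the zinc finger protein Zfp64 (0.93), Sox2 (0.93) and Psat1, an enzyme of serine synthesis (0.93). Those most like Prdm1 were the zinc finger protein Zfp799 (0.96), Nudc, a dynein-associated protein (0.93), Smad7, an inhibitor of BMP and TGF-beta signalling (0.93), the translation factor Eif3i (0.93) and Rcc2, a cell division protein (0.92).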

How the data were processed

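Per the file headers, the authors scanned 1-colour (Cy3) arrays and quantified them with Agilent Feature Extraction 10.5.1.1; per the labels, 50 ng of RNA was labelled. The deposited intensity values (processed signal, already background-subtracted) of 28 arrays were used. The deposited log2 table was found to be the same signal minus each array's median, within 0.0025, and served as an alternative. Control spots (1417) and 514 probes flagged non-uniform on an array were left out. Log2 intensity was scaled to each array's 75th percentile over 7227 probes well above background on all arrays. A gene was represented by its probe with the highest mean, named through RefSeq tables (GRCm38.p6; 16751 probes matched, 27052 did not), and tested where above background on both arrays of a compared group. Limma 3.58.1 (R 4.3.3) was fitted to 14 group means over all 28 arrays, with Benjamini-Hochberg adjustment over all genes tested and a threshold of 0.05. The fit was tested on simulated data.

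The 3 genes and the lists were chosen with earlier results of these data known, and 4 of the 16 comparisons (the sex differences at E10.5, in EG and in ES cells, and in the first step) were added after seeing the data. Besides the 3 genes, each list contributed up to 3 called genes with the largest change per comparison, and the 5 genes with the highest correlation to each gene over group means were named. List genes named beyond that (Suz12 in males, Cbfa2t2 between the E17.5 sexes, and the markers Dcn, Sox9 and Foxl2) complete a count or comparison and were chosen after their values were seen. The results of 1 further list are not reported here.

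Per the file headers, PGC replicates 1 and 2 were scanned on separate days, and same-numbered PGC groups deviated together in 15 of 15 pairs (correlation 0.29 to 0.79), so the numbers pair the PGC samples. Alternatives covered background correction, normalization, dim-probe filters, floors for signals not above background, probe, batch blocks, a replicate block and single arrays left out. Array number, 2 per group, limits the precision.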

Additional observations from a re-analysis of the deposited data

Results flagged for a closer look

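The E17.5 over E13.5 change differed between male and female PGC for each gene by a test of the difference itself. Males minus females, it was 3.41 for Prdm1, 3.09 for Prdm14 and 5.50 for Tfap2c. In E17.5 females Prdm1 and Prdm14 were above background on 0 of 2 arrays and Tfap2c on 1 of 2. The Prdm1 and Prdm14 differences no longer passed the threshold with each array's own floor (2.27 and 1.31) or normexp correction (0.88 and 0.57), and changed sign with the common floor (-0.38 and -0.46).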

How the results depend on the processing

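Of 579 results recomputed under alternatives other than leaving out an array, 529 kept their side of the threshold, and of 236 with an array left out, 213 did. A change of direction was counted only where the main or the alternative result passed the threshold. Results past it in neither could change sign and still count as kept, as Prdm1 between the E13.5 sexes did (main value 0.67, lowest -0.38). The cause of each change was not tested. The replicate block changed no call, and neither did the percentile over all probes. Because each group holds both replicate numbers, the replicate block could not move a fold change, only its error. It also covered all groups, while the pairing by number was seen among PGC groups. Normexp correction used the median spot signal. It gave weaker values for Prdm1 E17.5 over E13.5 in males (-1.37), Prdm14 between the E17.5 sexes (1.01) and the sex difference of Prdm1 (0.88) and Prdm14 (0.57), turned Prdm1 in oogonia to -0.29, and put Prdm14 in EG over E13.5 (-1.12) past the threshold. The common floor of -3.58 turned the sex difference of Prdm1 (-0.38) and Prdm14 (-0.46), weakened Prdm1 between the E17.5 sexes (0.29), put Tfap2c between the E13.5 sexes (-0.97) and, in EG over E13.5, Prdm14 (-0.86) and Tfap2c (0.44) past the threshold, and left 6 results without a value. Raising each signal not above background to its own array's floor, an alternative chosen after seeing the data, lost the sex difference of Prdm1 (2.27) and Prdm14 (1.31) and Prdm1 in oogonia (0.98). Quantile normalization put Tfap2c in oogonia (1.46) past it.

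The deposited table lost the calls for Tfap2c E13.5 over E10.5 in females (-1.63), Prdm1 (-2.16) and Tfap2c (-1.52) E17.5 over E13.5 in males, the sex difference of Prdm14 (3.41), Prdm1 in oogonia (2.91), Tfap2c in spermatogonia (2.04), Prdm1 in EG cells over E13.5 (-0.79) and, between ES sexes, Prdm14 (-2.78) and Tfap2c (-1.97). Without a filter, 3 Tfap2c calls were lost at unchanged values: E17.5 over E13.5 in males (-1.35), spermatogonia (1.71) and ES sexes (-1.91). Fits on only the compared groups, with fewer residual degrees of freedom, lost these 3 too, with Tfap2c E13.5 over E10.5 in females (-2.12) and males (-3.04), Prdm1 (-1.99) and Prdm14 (-2.87) E17.5 over E13.5 in males and Prdm1 in oogonia (2.11), and gained Prdm1 in EG over ES cells (0.85). A scan day block lost Tfap2c E13.5 over E10.5 in females (-2.12) and E17.5 over E13.5 in males (-1.35). A slide block on PGC arrays lost Tfap2c E13.5 over E10.5 in females (-2.55) and males (-3.47) and E17.5 over E13.5 in males (-1.08). Slide as a random block (correlation 0.61) lost the last (-1.14), Prdm1 in oogonia (2.15), Tfap2c in spermatogonia (1.76) and Prdm1 in EG cells over E13.5 (-1.35). Probe M08A01553 weakened Prdm1 E17.5 over E13.5 in males (-1.87) and its sex difference (1.73), and probe M08A01896 put Tfap2c in EG over E13.5 (1.52) and over ES cells (3.02) past the threshold, against arrays on which that probe was above background 0 of 4 times in E13.5 PGC and 1 of 4 in ES cells, so these are not measured differences.

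With each array left out in turn, calls changed side within these ranges: Tfap2c E13.5 over E10.5 in females, -2.42 to -1.83; E17.5 over E13.5 in males, Prdm1 -2.49 to -1.48 and Tfap2c -1.40 to -1.30; Prdm1 in oogonia, 1.74 to 2.47; Tfap2c in spermatogonia, 1.63 to 1.79; Prdm14 in EG over E13.5, -1.34 to -0.40; Prdm1 in GS over spermatogonia, -1.56 to 0.64; and between ES sexes, Prdm14 -2.81 to -2.64 and Tfap2c -2.04 to -1.79. Counts of calls over all genes moved by over 1.5 times in 15 of 16 comparisons under normexp correction, 14 in fits on only the compared groups, 12 with the deposited table, 10 without a filter, 9 with slide as a random block, 6 with each array's own floor, 4 each with the common floor and quantile normalization, 1 when all probes set the percentile and 0 with the replicate block, and among 9 PGC comparisons in 8 with a slide block and 7 with a scan day block. For E17.5 over E13.5 in males, for example, fits on the compared groups called 570 genes, against 5684 in the fit of all groups. Such fits called 0 genes for E13.5 over E10.5 in females (against 3341) and males (1695). They also called 0 between the E13.5 sexes (1642), in oogonia (2695) and in spermatogonia (2131), among others. EG over ES went the other way, with 4027 against 1195. The shares of genes called given above thus rest on a spread shared by all groups. In these leave-one-out fits the lone array left in a group is assumed to vary like the other groups.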
